A study of Mus musculus with 12 samples.

Results

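The comparison set cells that keep wild-type Foxo1 as their sole allele against cells with no Foxo1 allele. It used 3 arrays of the genotype wt+/mt- and 3 arrays of the genotype wt-/mt-, out of 12 arrays in all, chosen by the Foxo1 status in the labels. Here wt is the wild-type allele, mt is the T24P allele, and a minus sign marks a knockout. All cells were BL#19, a murine Burkitt lymphoma (BL) line edited with CRISPR/Cas9, so both genotypes lack the mutant allele and differ in the wild-type one. The other 6 arrays, wt+/mt+ and wt-/mt+ with 3 each, carry the mutant allele and serve here only for a second loss of the wild-type allele. Total RNA was measured on Affymetrix mouse arrays by a method that primes from the 3' end of transcripts. Of 18194 genes with a named probe set, 11193 were kept in the comparison. The arrays carry the numbers 7, 8 and 9 (wt+/mt-) and 10, 11 and 12 (wt-/mt-). Nothing in the labels tells whether the 3 arrays of a genotype are separate clones, separate cultures or repeats of 1 culture. The p-values therefore cover only the spread of these arrays, technical or not, and any genotype can be represented by 1 clone.

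FOXO1 is a forkhead transcription factor downstream of PI3K. When growth factor or antigen receptors activate PI3K, the kinase AKT phosphorylates FOXO1 and drives it out of the nucleus, which ends its activity on genes that restrain growth, favour apoptosis and feed back on the PI3K pathway. In germinal centers, where B cells mutate and select their antibodies, FOXO1 is nuclear in the dividing cells of the dark zone and is needed to form that zone. In lymphocytes it also controls genes of homing and circulation.

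Several features of the 6 arrays bear on what follows. The median SD over genes was 0.132 (log2) in wt+/mt- and 0.264 in wt-/mt-, and the 3 wt-/mt- arrays lay far from one another on the first 2 principal components, which held 44.8% and 27.0% of the variance. The actin 3' over 5' signal, a measure of RNA integrity and of how far labelling ran, was 2.17 and 1.71 (log2) on arrays 7 and 8 and between 1.06 and 1.29 on the other 10 arrays, so leading values are also given without those arrays. All 19 B cell identity genes lay above the array medians on all 6 arrays. Of the markers of other cells, 3 of 7 for T cells, 0 of 4 for NK cells, 4 of 11 for myeloid cells, 0 of 6 for stromal cells and 0 of 2 for erythroid cells did so.

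Foxo1 itself was read first. Its brightest probe set stood at 12.10, 11.92 and 11.59 (log2 level) on the wt+/mt- arrays and at 10.23, 9.39 and 10.34 on the wt-/mt- arrays. All 3 arrays without an allele lay below all 3 arrays with the wild-type allele. Foxo1 fell by 1.88 on the log2 scale (SE 0.28, limma over the 6 arrays, adjusted p = 0.0436), or 3.69-fold. Of its other probe sets, 2 changed by -1.84 and -1.79, and a dim one, between 5.59 and 5.97 on these arrays, changed by -0.07. In the genotypes with the mutant allele the level was 11.64 (wt+/mt+) and 11.46 (wt-/mt+). The call rested on wt+/mt- arrays: the change was -1.77 without array 7, -1.86 without array 8, -2.02 without array 9 and -1.60 without arrays 7 and 8, none of them called. The position of the edits is not given in the sources used here, and a probe set outside the edited part does not check an edit, so the level checks the labels only in part.

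Loss of the wild-type allele changed 115 of 11193 genes, and most of the changes were falls. Of these, 22 rose and 93 fell (limma over the 6 arrays, called when p adjusted by Benjamini-Hochberg over the 11193 genes was under 0.05), which is 1.03% of all genes, 0.197% higher and 0.831% lower. A further count of 2118 genes had an unadjusted p under 0.05. The median size of change among the 115 was 1.44 (log2), 99 of them passed 2-fold, and the median change over all genes was -0.01. The 6 arrays did not overlap for any of the 115, but those genes were chosen on these arrays, and over all genes 25.9% had arrays without overlap. In wt-/mt-, 14 of the 93 genes that fell lay below the array median, where a change is understated. With the spread shared over all 12 arrays the fit called 731 genes higher (6.53%) and 938 lower (8.38%), the 115 among them, but that spread is drawn in part from genotypes that vary less than wt-/mt-.

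The calls were thin in the number of arrays. Without array 7 the fit called 0 genes (1177 at an unadjusted p under 0.05), without array 8 also 0 (1117), and without array 9 it called 1, Cdyl2. Without arrays 10, 11 or 12 it called 226, 255 and 158. With arrays 7 and 8 both left out, the 6-array design called 0 genes (330 at an unadjusted p under 0.05), and the 12-array fit called 114, with 75 of the 115 among them. Because the arrays of the 115 genes do not overlap, leaving arrays out could not turn their sign. With the actin ratio as a covariate the fit called 0 genes (751 at an unadjusted p under 0.05), and all 115 kept their sign, as did 9593 of all 11193.

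**Figure D1:**
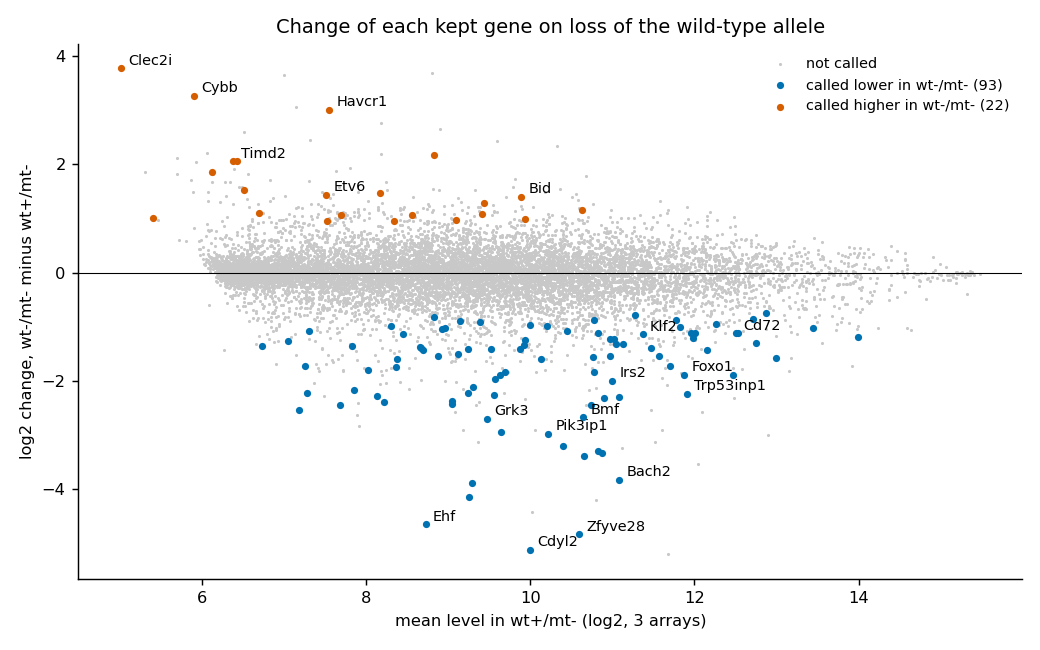
Each point is 1 of 11193 kept genes, with its mean level in the 3 wt+/mt- arrays (log2) on the horizontal axis and the log2 change in wt-/mt- on the vertical axis. The 93 genes called lower (blue) reach from -0.75 to -5.11 and the 22 called higher (orange) from 0.95 to 3.78, and the mean level of 4 of the 22 lies below the array median in wt+/mt-.

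Some FOXO target genes of the list for feedback on PI3K and for signalling fell. Of 13 kept genes of that list, 3 were called lower and 0 higher, beside 0.831% lower over all genes. In the list 12 changes lay below 0, as did 5698 of all 11193, and the median was -0.56. It was -0.23 without array 12 and -0.77 without array 11. Pik3ip1, which encodes an inhibitor of the PI3K catalytic subunit, stood at 10.11, 10.24 and 10.31 on the wt+/mt- arrays and at 7.24, 7.82 and 6.69 on the wt-/mt- arrays. It fell by 2.97 (SE 0.28, limma adjusted p = 0.0201), or 7.84-fold, and the change was -3.06 without arrays 7 and 8. Its levels in wt+/mt- were tight and lay more than 2 log2 units above every wt-/mt- array. Irs2, the adaptor that links the insulin and IGF1 receptors to PI3K, stood at 10.97, 10.99 and 11.03 against 9.21, 9.41 and 8.38, a fall of 2.00 (SE 0.27, adjusted p = 0.0333). Klf2, a factor of lymphocyte quiescence and homing, fell by 1.14 (SE 0.16, adjusted p = 0.0367), from 11.48, 11.37 and 11.27 to 10.05, 10.49 and 10.16. The call of Klf2 ended with 1 weight per genotype over the 12 arrays (adjusted p = 0.121). Sesn1, a sestrin that restrains mTORC1, had a change of -1.28 (adjusted p = 0.233) that array 12 set in large part, at 9.24 against 11.01 and 11.15 on arrays 10 and 11. Rictor, the mTORC2 subunit, had a change of -0.56 (adjusted p = 0.168), and Sesn3 was the 1 gene above 0 (0.26, adjusted p = 0.661).

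FOXO target genes of cell cycle arrest and survival gave 1 fall and 0 rises among 14, beside 0.831% lower over all genes. In the list 12 changes lay below 0, against 5698 of all 11193, and the median was -0.52. The fall was that of Trp53inp1, a regulator of autophagy and of the p53 response, from 11.88, 11.81 and 12.03 to 9.92, 10.12 and 8.98 (change -2.23, SE 0.30, limma adjusted p = 0.0333). The groups did not overlap, as in all called genes, and array 12 was the lowest. Its dim probe set gave -0.23, and the median over both -1.23. Bcl2l11, which encodes the pro-apoptotic BIM, had a change of -1.23 (adjusted p = 0.123) and stood at 10.44, 9.69 and 10.88 on the wt-/mt- arrays. These levels followed the order of Foxo1, but Bcl2l11 is also named below for its likeness to Foxo1 over the same arrays. Their shared order is therefore no separate result, and a relation to the level of Foxo1 was not tested. The cell cycle inhibitors for which FOXO factors are best known did not pass the test: Cdkn1b, encoding p27, had a change of 0.64 (adjusted p = 0.565), and Cdkn1a, encoding p21, one of -0.07 (adjusted p = 0.917). Of 16 genes of stress defence and autophagy in the FOXO list, 0 were called, with a median of -0.04 and changes from -0.58 (Bnip3) to 0.35 (Prdx3). Sod2 and Cat, enzymes that remove reactive oxygen, had changes of 0.02 and 0.14. In the forkhead family Foxo1 was the 1 gene called of 13. The paralogs Foxo3 and Foxo4 had changes of -0.58 (adjusted p = 0.518) and -0.06 (adjusted p = 0.917).

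**Figure D2:**
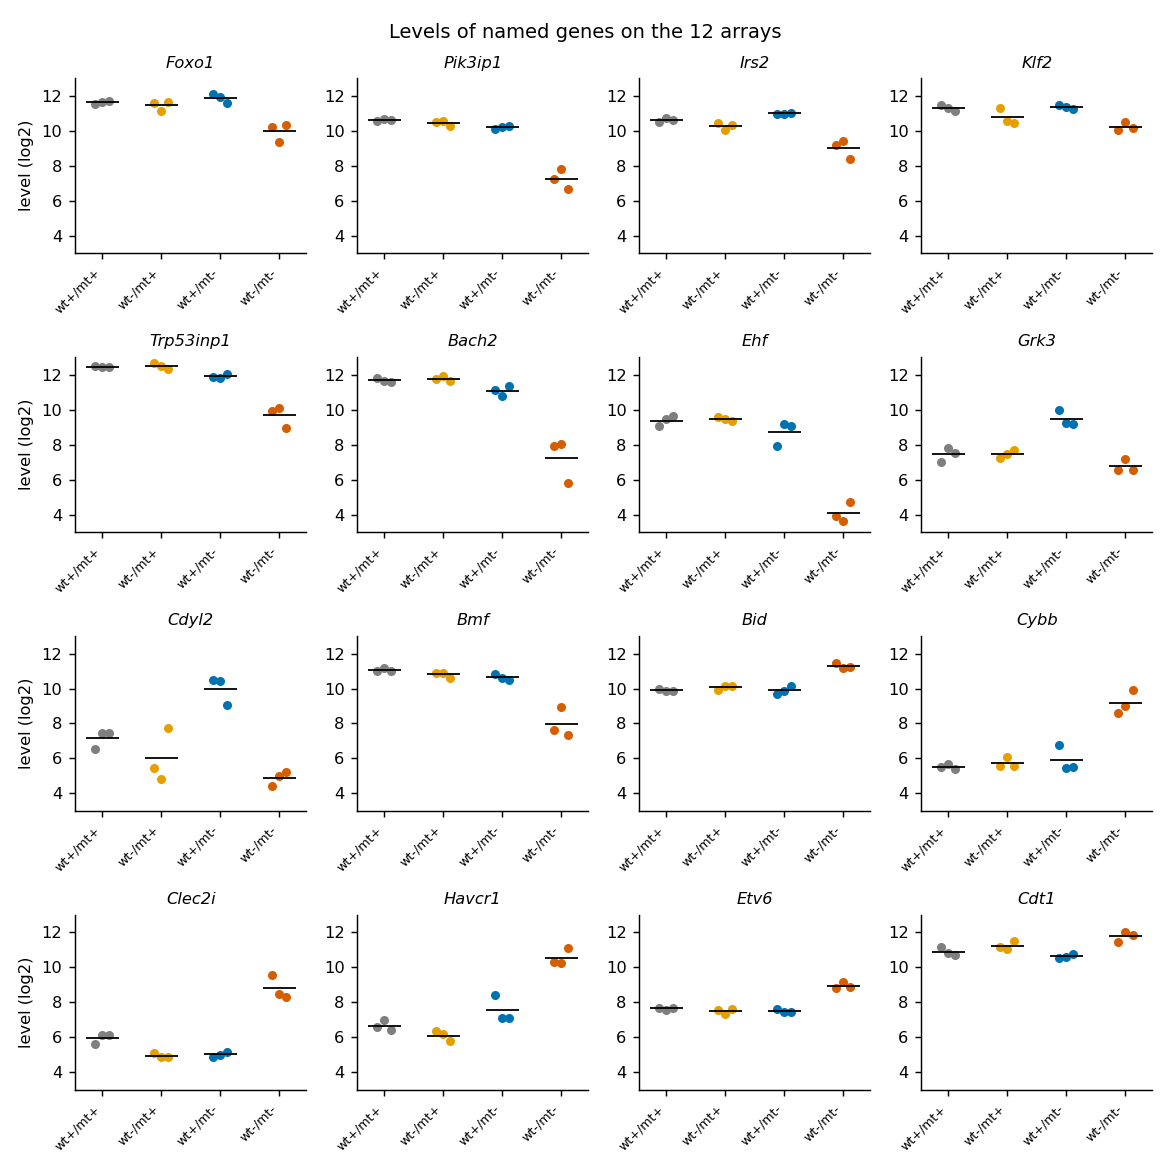
Levels (log2) of 16 genes on the 12 arrays, with 1 point per array, a bar at the mean of 3 arrays, and the genotypes on the horizontal axis. Pik3ip1, Irs2, Trp53inp1, Bach2, Ehf and Bmf are lower on the 3 wt-/mt- arrays than on the other 9, while Cdyl2 and Grk3 are also higher in wt+/mt- than in the genotypes with the mutant allele.

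Among Foxo1 target genes known from lymphocytes, 2 of 11 kept genes were called lower and 0 higher, beside 0.831% lower over all genes. The median was -0.80, but -0.25 without array 11, -0.42 without array 12 and -0.23 with no filter on dim genes. Bach2, a repressor that holds B cells back from becoming plasma cells, stood at 11.12, 10.76 and 11.38 on the wt+/mt- arrays and at 7.92, 8.03 and 5.83 on the wt-/mt- arrays. It fell by 3.82 (SE 0.58, limma adjusted p = 0.0449), or 14.1-fold, with array 12 lowest, although its bright probe sets ranged from -3.94 to -0.63. The other fall was that of Klf2, given above, which both lists hold, so their counts are not separate. A pair of homing receptors had an adjusted p just above the threshold. Cxcr4, the chemokine receptor of the dark zone, stood at 11.41, 11.44 and 11.72 against 7.78, 7.75 and 9.69 (change -3.12, SE 0.51, adjusted p = 0.0555). S1pr1, the receptor by which lymphocytes leave tissue, stood at 8.67, 8.85 and 8.04 against 7.23, 6.34 and 6.73 (change -1.76, SE 0.30, adjusted p = 0.0557). In neither did the groups overlap, as was so for 25.9% of all genes.

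In the wider list of trafficking and adhesion 1 of 18 genes was called lower, beside 0.831% over all genes. The median was -0.23 (-0.39 without arrays 7 and 8 and -0.11 without array 11). The called gene was Grk3, a kinase that desensitises G protein-coupled receptors such as CXCR4. It stood at 9.97, 9.23 and 9.20 against 6.56, 7.18 and 6.57, and fell by 2.70 (SE 0.27, limma adjusted p = 0.0214), and its bright probe sets gave -4.41 to -2.70. Grk3 in wt+/mt- also lay above wt+/mt+, where its mean was 7.45. Itgb2, the beta chain of LFA-1, had a change of -0.95 (adjusted p = 0.0555). Rgs13, a brake on chemokine receptor signalling in germinal center B cells, spread over the wt-/mt- arrays from 13.13 on array 10 to 4.00 on array 12 (change -2.89, adjusted p = 0.505). A mean says little about it.

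Among genes of B cell identity 1 of 19 was called lower, beside 0.831% over all genes, and 14 changes lay below 0. The median was -0.45 (-0.74 without array 10 and -0.25 without array 11), and the fit with a spread shared over 12 arrays called 4 lower, beside its 8.38% over all genes. Cd72, an inhibitory co-receptor of B cells, fell by 1.12 (SE 0.18, limma adjusted p = 0.0472), from 12.72, 12.26 and 12.54 to 11.43, 11.56 and 11.17. It was also the 1 gene called of 8 inhibitory receptors, where Cd22 had a change of -1.05 (adjusted p = 0.144). Pax5 and Ebf1, which establish the lineage, had changes of -0.40 (adjusted p = 0.504) and -0.39 (adjusted p = 0.284). In the B cell receptor and PI3K signalling list 0 of 23 genes were called, with a median of -0.13 and changes from -1.20 (Inppl1) to 0.59 (Ptpn6). Among plasma cell genes and their repressors Bach2 was the 1 of 11 called, while the plasma cell factors Xbp1 and Irf4 had changes of -1.12 (adjusted p = 0.16) and 0.40 (adjusted p = 0.702), and Bcl6, a repressor that maintains germinal center B cells, one of -0.67 (adjusted p = 0.228). Of 4 kept genes of early B cells and recombination, 0 were called.

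Dark zone and light zone genes gave no calls. The dark zone list had 0 of 11 called and a median of 0.70 (0.18 without arrays 7 and 8, 0.27 with the actin covariate and 0.42 without array 10), which joined members going opposite ways, from Cxcr4 at -3.12 and Foxp1 at -0.85 to the mitotic genes Plk1 at 1.12 and Aurka at 1.16. The light zone list had 0 of 10 called and a median of -0.15, which turned to 0.10 without arrays 7 and 8 and changed sign in 4 of 18 settings. For antigen presentation 1 of 20 was called lower, beside 0.831% over all genes. That gene was H2-Ob, a chain of the modulator H2-O, which limits peptide loading on class II molecules. It stood at 10.56, 10.70 and 10.97 against 8.83, 8.69 and 7.40, a fall of 2.44 (SE 0.38, limma adjusted p = 0.0472). Its partner chain H2-Oa had a change of 1.42 (adjusted p = 0.442), and the class II genes H2-Aa, H2-Ab1 and H2-Eb1 had changes of -0.49, 0.04 and -0.31, none of them called.

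The largest falls among the called genes were those of Cdyl2, Zfyve28 and Ehf. Cdyl2, a chromodomain protein, stood at 10.49, 10.43 and 9.06 on the wt+/mt- arrays and at 4.42, 4.98 and 5.24 on the wt-/mt- arrays. It fell by 5.11 (SE 0.42, limma adjusted p = 0.0193), with a change of -4.18 without arrays 7 and 8, and its bright probe sets ranged from -5.11 to -1.16, with dim ones at -0.30 and -0.14. With both alleles Cdyl2 had a mean level of 7.16, between those of the mt- genotypes. The hybridisation spike BioC lay between 10.53 and 11.06 on arrays 7 to 12 and between 11.31 and 11.56 on arrays 1 to 6. The spikes BioDn (11.82 to 12.43 against 12.85 to 13.07) and CreX (14.41 to 14.67 against 14.85 to 14.96) were apart as well. BioB overlapped (9.24 to 9.85 and 9.29 to 9.67). The part of such differences in levels set across mt- and mt+ arrays was not tested.

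Zfyve28, an endosomal protein that promotes turnover of the EGF receptor, stood at 10.31, 10.55 and 10.92 against 5.29, 4.65 and 7.35, a fall of 4.83 (SE 0.65, limma adjusted p = 0.0333). Ehf, an ETS factor known from epithelia, stood at 7.94, 9.16 and 9.08 against 3.91, 3.61 and 4.71, a fall of 4.65 (SE 0.41, adjusted p = 0.0193), with bright probe sets from -4.65 to -2.08. Ehf was near the bottom of the scale without the allele, where array values understate a change. Lct, the gene of lactase, fell by 3.88 (SE 0.41) and Gm8369, a predicted gene, by 4.15 (SE 0.62). Csf1, a cytokine for macrophages, fell by 3.38 (SE 0.36, adjusted p = 0.023), from 10.19, 10.44 and 11.33 to 7.03, 7.81 and 6.99, with bright probe sets from -3.38 to -0.05 and -0.98 for the median over all, which was not called (adjusted p = 0.0585). Maf, a bZIP factor, fell by 2.94 with bright probe sets from -2.94 to 0.06. The other falls of this size were Lnx1, a ubiquitin ligase (-3.33), B3gnt5, a glycosyltransferase of lacto-series glycolipids (-3.28), Ppp3cc, a catalytic subunit of calcineurin (-3.19), and Map2, a microtubule-associated protein (-2.53). The Map2 probe set was dim, with a mean of 5.91 over the 6 arrays. Its other probe sets, dim as well, gave between -0.27 and -0.05. Of the 115 called genes, 54 had several bright probe sets, and in 51 these had the same sign.

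The 2 smallest adjusted p-values belonged to genes outside the naming rule, chosen here after their values were seen. Ms4a6b, of the CD20 family, stood at 7.50, 7.87 and 7.66 against 5.25, 5.25 and 5.20 (change -2.44, SE 0.14, limma adjusted p = 0.00454). Gimap8, a GTPase of lymphocytes, stood at 8.20, 8.26 and 8.20 against 6.01, 5.83 and 5.65 (change -2.39, SE 0.14, adjusted p = 0.00454). In both genes the spread within each genotype was small, unlike in Zfyve28 or Bach2. The wt-/mt- values of both lay below the medians of those arrays (6.19 to 6.25). Array values understate a change there, so a small spread says little.

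Among the 22 risers Clec2i, a C-type lectin-like ligand of a natural killer cell receptor, rose most. It stood at 4.86, 5.01 and 5.18 on the wt+/mt- arrays and at 9.57, 8.50 and 8.32 on the wt-/mt- arrays (change 3.78, SE 0.33, limma adjusted p = 0.0193). Havcr1, which encodes the phosphatidylserine receptor TIM-1, stood at 8.41, 7.13 and 7.11 against 10.33, 10.25 and 11.10 (change 3.01, SE 0.41, adjusted p = 0.0333). Its relative Timd2 rose by 2.06 (SE 0.20, adjusted p = 0.0201), from between 6.37 and 6.40 to between 8.11 and 8.83. Clec2i and Timd2 lay near or below the array median in wt+/mt- and well above it in wt-/mt-. The actin-severing Gsn rose by 2.06, Rassf4 by 2.18, the zinc finger factor Snai2, known from epithelial to mesenchymal transition, by 1.85, and the tight junction gene Marveld2 by 1.53. Etv6, an ETS repressor, rose by 1.44 (SE 0.14, adjusted p = 0.0202), from 7.64, 7.43 and 7.47 to 8.81, 9.14 and 8.90. The median of the Etv6 probe sets changed by 1.14 and was not called (limma adjusted p = 0.0585). Neither was that of Rassf4 (1.61, adjusted p = 0.0812). With Ehf, Etv6 made the 2 called genes of 16 ETS factors, 1 in each direction. Hk1, a hexokinase, rose by 1.47 (SE 0.19), or by 0.94 for the median of its probe sets, which was not called. It was the 1 gene called of 16 in the glycolysis list, whose median was -0.03. The ETS and glycolysis counts stand beside 1.03% called over all genes. The remaining risers of the 15 with the largest change were Nudt19 (1.29), H2aw (1.11), the splicing factor Prpf3 (1.08), and Bid and Cdt1, described below.

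Genes of the phagocyte oxidase and of lysosomal phagocyte functions had 1 rise among 16, beside 0.197% higher over all genes, and a median of 0.60 (0.31 without array 11 and 0.15 with no filter). Cybb, which encodes the electron-transferring subunit of that oxidase, stood at 6.75, 5.46 and 5.51 against 8.61, 8.99 and 9.91 (change 3.27, SE 0.46, limma adjusted p = 0.0369). Its dimmer probe sets gave 1.65 and 0.72, and the median over its probe sets 1.63. Ncf4, a cytosolic subunit of the oxidase, had a change of 3.07 (adjusted p = 0.0815), and Mpeg1, a pore-forming protein of phagocytes, one of 3.66 (adjusted p = 0.101). These 2 ranged widely over the wt-/mt- arrays: Ncf4 from 8.72 to 11.31 and Mpeg1 from 9.04 to 12.56. Ncf1, another cytosolic subunit, had a change of -0.80 (adjusted p = 0.238). Hvcn1, a proton channel that sustains the oxidase, named after its values were seen, fell by 2.30 (SE 0.20, adjusted p = 0.0193). Beside these values, the summed level of 11 myeloid markers was between 9.57 and 9.84 (log2 of the sum) in wt+/mt- and between 9.70 and 10.30 in wt-/mt-. Of these markers Lyz2, Itgam, Mpo, S100a8, S100a9 and Cd14 lay below the array medians, Lyz2 between 5.32 and 5.79 on all 6 arrays. Csf3r lay above the median on array 11 alone. Csf1r, Adgre1, Fcgr1 and Cd68 lay above the medians on all 6 arrays, and Csf1r and Adgre1 had changes of -0.05 and -0.10. Cd68 reached 9.28 on array 11, against between 6.60 and 7.75 in wt+/mt-.

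In the BCL2 family 1 of 12 genes fell and 1 rose, beside 0.831% lower and 0.197% higher over all genes. Both were of the pro-apoptotic BH3-only class. Bmf stood at 10.81, 10.63 and 10.48 on the wt+/mt- arrays and at 7.63, 8.93 and 7.35 on the wt-/mt- arrays (change -2.67, SE 0.40, limma adjusted p = 0.0436). Its probe sets ranged from -2.67 to -0.11, with a change of -0.12 for their median, which was not called (adjusted p = 0.684). Bid, which links death receptors to mitochondria, stood at 9.69, 9.86 and 10.13 against 11.44, 11.17 and 11.26 (change 1.40, SE 0.16, adjusted p = 0.025). For the median over its probe sets Bid changed by 0.98 and was not called (limma adjusted p = 0.0982). The groups did not overlap in either gene, as in all called genes. Of the survival members, Mcl1 had a change of -1.07 (adjusted p = 0.215), Bcl2 one of 0.21 and Bcl2l1 one of -0.01. Among 15 p53 targets Trp53inp1 was the 1 called, with a median of -0.26.

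Cell cycle genes had changes above 0 almost throughout, but few passed the test. In the G2/M list 26 of 26 changes lay above 0, as did 5495 of all 11193, with a median of 0.88 and 0 calls. The changes ran from 0.15 (Bub1b) to 1.74 (Birc5, adjusted p = 0.112), with the kinases Aurka at 1.16 (adjusted p = 0.0845) and Plk1 at 1.12 (adjusted p = 0.0962). In the S phase list 25 of 26 lay above 0, with a median of 0.94. Its 1 call was Cdt1, which loads the replicative helicase, at 10.53, 10.60 and 10.78 against 11.48, 12.01 and 11.86 (change 1.15, SE 0.17, limma adjusted p = 0.0442). The median of the Cdt1 probe sets changed by 1.22 and was not called (limma adjusted p = 0.0704). With the spread shared over 12 arrays, 15 G2/M genes and 14 S phase genes were called higher, beside 6.53% over all genes. That spread is too small for wt-/mt-.

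These medians moved with arrays 7 and 8. Relative to the mean of the 6 arrays, the median G2/M gene stood at -0.67, -0.76 and 0.09 on arrays 7, 8 and 9 and at 0.52, 0.16 and 0.70 on arrays 10, 11 and 12. The S phase median stood at -0.72, -0.61 and 0.02 against 0.53, -0.02 and 0.80, so in that list array 9 lay above array 11. Without arrays 7 and 8 the medians were 0.35 for G2/M and 0.45 for S phase. The same 2 arrays had the highest actin ratios. The FOXO feedback list did not follow that pattern: its median stood at 0.19, 0.30 and 0.23 on arrays 7, 8 and 9 and at -0.10, -0.21 and -0.64 on arrays 10, 11 and 12. Its median change was -0.51 without arrays 7 and 8 but -0.23 without array 12. In the CDK inhibitor, pocket protein and G1 cyclin list 0 of 18 were called, with a median of 0.23 that became -0.08 without arrays 7 and 8.

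**Figure D3:**
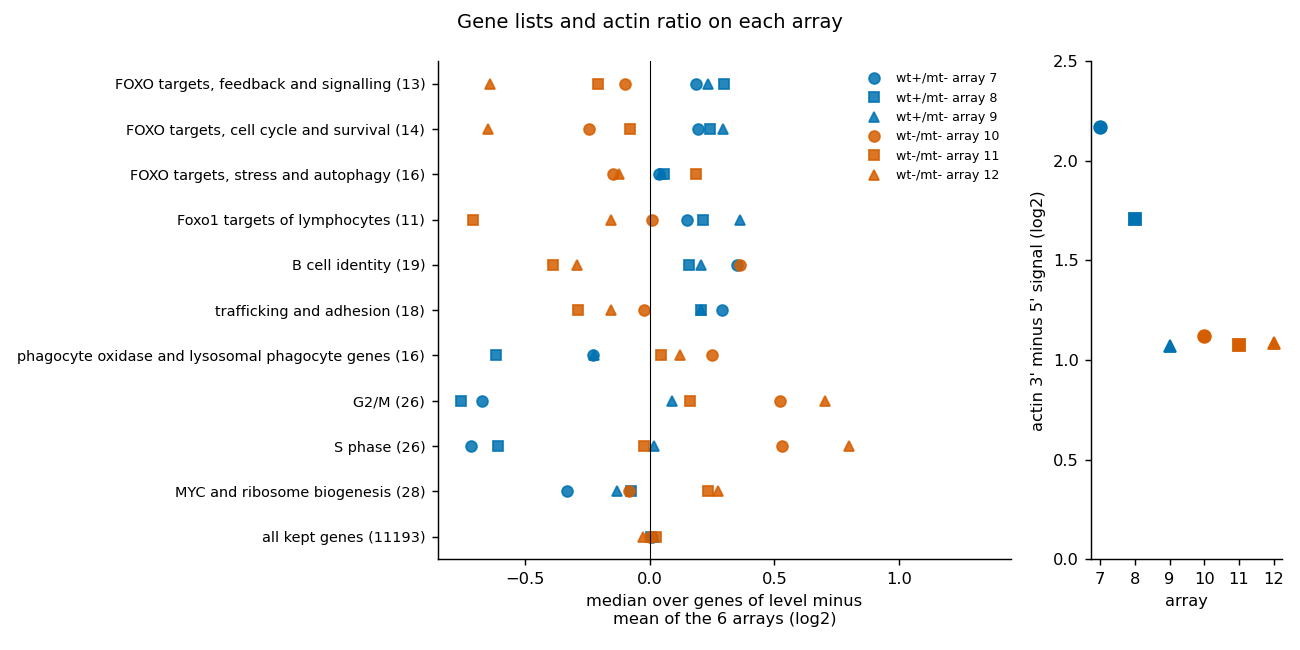
Left, for 10 gene lists and all kept genes (number of genes in parentheses), the median over genes of the level minus the mean of the 6 arrays (log2), with 1 symbol per array. Right, the actin 3' minus 5' signal of each array (log2). Arrays 7 and 8 lie apart from array 9 in the G2/M and S phase lists and in the actin ratio, while the 3 wt+/mt- arrays lie close together in both upper FOXO lists.

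Genes of growth and metabolism showed small shifts. The MYC and ribosome biogenesis list had 0 of 28 called and a median of 0.35, with 26 changes above 0. Mybbp1a, a nucleolar protein, came closest (0.70, limma adjusted p = 0.0718). Oxidative phosphorylation had 0 of 24 called (median 0.08), cholesterol synthesis 0 of 14 (-0.13), mTORC1 with lysosome and autophagy 0 of 20 (-0.16), and amino acid stress 0 of 14 (-0.08). Hypermutation, class switching and DNA repair had 0 of 20 called and a median of 0.14, and Ung, the uracil glycosylase of class switching, had a change of 0.75 (adjusted p = 0.0639). NF-kB targets had 0 of 12 called (0.09), the interferon response 0 of 14 (-0.21), and immediate early and heat shock genes 0 of 16 (-0.40, but -0.03 without arrays 7 and 8). Over the 18 settings the median ran from -0.46 to 0.24 for amino acid stress, from -0.28 to 0.07 for cholesterol synthesis and from -0.16 to 0.30 for NF-kB targets, so these had no stable direction. These counts stand beside 1.03% called among all genes, at which a list of this size would hold less than 1 gene.

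Promoter sequence was read for the called genes, since FOXO factors bind the motif GTAAACA and the related ATAAACA, which differ in the first base. Both were searched on both strands of 300-base windows from RefSeq (GRCm38.p6), from 250 bases before to 50 after each annotated start, and a called gene had a window in 77 of 93 falls and 20 of 22 rises. GTAAACA occurred in windows of 5 genes that fell, or 4.13% of their 121 windows, in 0 of 20 that rose, in 2.49% of the windows of kept genes, and in 3.65% of all 32851 windows. ATAAACA occurred in 5 genes that fell (5.79% of windows) and 1 that rose (Clec2i), in 2.59% of the windows of kept genes, and in 4.60% of all. The genes that fell were Gm7967, Marchf1, Nek7, Pim1 and Ube2h for the first motif and Atg4a, H2-Ob, Ms4a6b, Sgms1 and Zbtb18 for the second. Windows of 1 gene can overlap and hold the same site, as in Zbtb18. By gene, 6.5% of the 77 that fell held each motif. For the first and second motif the shares were 0% and 5.0% of the 20 that rose. They were 3.0% and 3.1% of kept genes, and 4.1% and 5.3% of all. A match is a description of the letters, not a bound site. The first motif lay before the start in 4 genes that fell. Gm7967, a predicted gene, holds it at -181 and -144 and is not shown. For the other 3 the 250 bases before the annotated start follow, with the motif in capitals (TGTTTAC where it is on the opposite strand).
Pim1, plus strand, chr17:29492835-29493084: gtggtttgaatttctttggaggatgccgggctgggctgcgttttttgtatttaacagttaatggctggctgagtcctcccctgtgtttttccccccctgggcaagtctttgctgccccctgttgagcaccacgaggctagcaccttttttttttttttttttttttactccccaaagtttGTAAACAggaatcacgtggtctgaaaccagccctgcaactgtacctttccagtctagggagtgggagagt
Marchf1, plus strand, chr8:65618275-65618524: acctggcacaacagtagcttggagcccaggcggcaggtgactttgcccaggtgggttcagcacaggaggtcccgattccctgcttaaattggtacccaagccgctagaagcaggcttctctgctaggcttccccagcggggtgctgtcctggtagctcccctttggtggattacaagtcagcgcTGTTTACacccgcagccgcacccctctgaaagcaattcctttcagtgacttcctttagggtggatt
Ube2h, minus strand, chr6:30243804-30244053: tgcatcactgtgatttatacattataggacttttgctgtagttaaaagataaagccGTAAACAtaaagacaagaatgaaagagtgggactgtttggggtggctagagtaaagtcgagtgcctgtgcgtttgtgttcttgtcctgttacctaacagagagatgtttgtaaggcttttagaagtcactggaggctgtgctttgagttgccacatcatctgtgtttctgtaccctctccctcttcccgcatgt
The motif's first base lies at -70, -66 and -194 from the start. Pim1, a survival kinase of lymphocytes, stood at 9.85, 10.02 and 10.10 against 9.16, 9.05 and 8.86 (change -0.97, SE 0.14, limma adjusted p = 0.0401). Marchf1, a ubiquitin ligase that removes class II molecules and CD86 from the surface, fell by 2.21 (SE 0.28, adjusted p = 0.0292), and Ube2h, a ubiquitin-conjugating enzyme, by 1.00 (SE 0.11, adjusted p = 0.025). These 3 genes were named after their values and sequences were seen.

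The same allele was also lost in cells that kept mutant Foxo1, as wt-/mt+ against wt+/mt+, a comparison that shares no array with the first. There 50 of the 11193 genes were called, 24 higher and 26 lower (0.447%), and the changes of the 115 genes were small. The median size of change of the 115 was 0.18 with the mutant allele and 1.44 without it. Those genes were chosen for their change without it, so that order is a description. Over all genes the medians were 0.0995 and 0.214, and 8099 of 11193 changed more without it. Of the 115, 47 had the same sign in both comparisons, against 5780 of all 11193, and 3 were called in both, each in the opposite direction, and are named for that. Clec2i changed by 3.78 without the mutant allele and by -1.01 with it, Prpf3 by 1.08 and -0.57, and Hvcn1 by -2.30 and 0.54. Pik3ip1 had a change of -0.16 with the mutant allele, Irs2 one of -0.34, Trp53inp1 one of 0.05 and Bach2 one of 0.11, none of them called. Foxo1 had a change of -0.18 (limma adjusted p = 0.538). Across all kept genes the changes of the 2 comparisons had a Pearson r of 0.0787, a description over genes, which are not independent replicates. G2/M and S phase genes had medians of 0.55 and 0.39 with the mutant allele, the same side as without it, and Aurkb was the 1 gene called of the G2/M list (0.48).

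**Figure D4:**
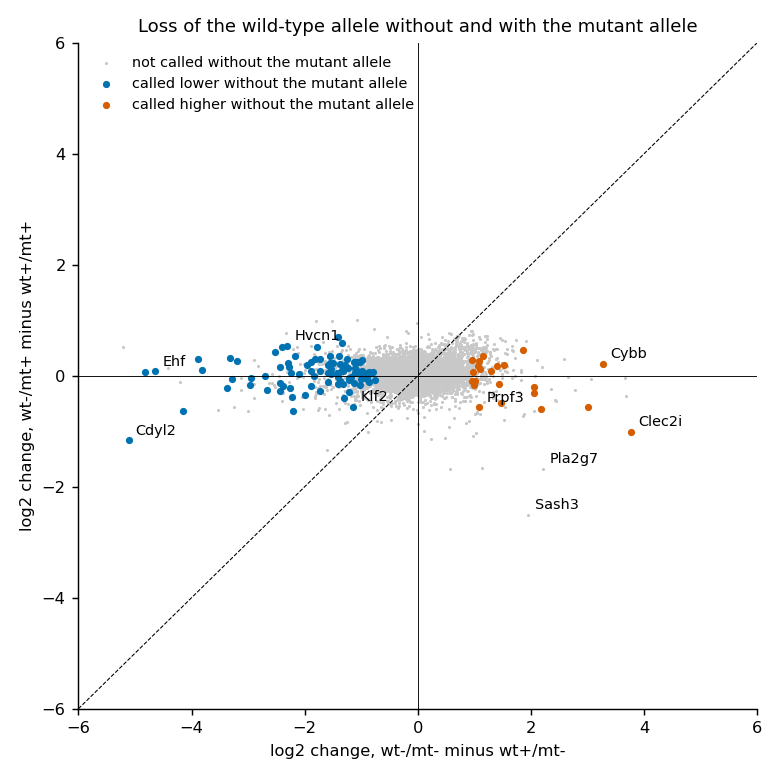
Each point is a kept gene, with its log2 change on losing wild-type Foxo1 in cells lacking the mutant allele on the horizontal axis and in cells carrying it on the vertical axis, and the dashed line marks equal changes. The called genes lie along the horizontal axis, and Clec2i, Prpf3 and Hvcn1 lie on opposite sides of 0 in the 2 comparisons.

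The difference of both losses was tested as an interaction over the 12 arrays, a fit that shares the 6 arrays of the main comparison. It called 366 genes, 97 higher and 269 lower (3.27%), and 107 of the 115 were among them. The fit shared 1 spread over the 12 arrays, although wt-/mt- varied most. With 1 weight per genotype it called 359 genes, with 268 of the 366 among them. With each array centred on its median the split was 134 and 231. Foxo1 had an interaction of -1.71 (limma adjusted p = 0.0223), Pik3ip1 one of -2.81 (adjusted p = 0.00169) and Trp53inp1 one of -2.28 (adjusted p = 0.00526). Cdt1 was not called in it (0.79, adjusted p = 0.113). Without arrays 7 and 8 the interaction called 52 genes, and without any 1 array between 120 (without array 1) and 1002 (without array 11).

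Levels of whole chromosomes differed among the wt-/mt- arrays. Relative to the mean of wt+/mt-, the median gene of chromosome 12 stood at -0.64 and that of chromosome 1 at -0.37 on array 10. On array 11 the median of chromosome 6 was 0.25. On array 12 the median was 0.35 for chromosome 16, -0.34 for chromosome 8 and -0.24 for chromosome 3, which carries Foxo1. Chromosomes 19 (0.20) and 6 (0.15) also departed on array 12. The medians of the 3 wt+/mt- arrays all lay between -0.03 and 0.03, but their own mean is the reference, which draws them toward 0. The called genes were 11 of 634 kept genes on chromosome 1, all lower, and 11 of 548 on chromosome 6, 5 higher and 6 lower, beside 10 of 546 on chromosome 10, 9 of 955 on chromosome 11 and 1 of 409 on chromosome 12. With each array centred within its chromosomes the fit called 161 genes, 37 higher and 124 lower, with 99 of the 115 among them, and Foxo1 changed by -1.78 and was not called. The part of chromosome number in single genes was not tested.

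**Figure D5:**
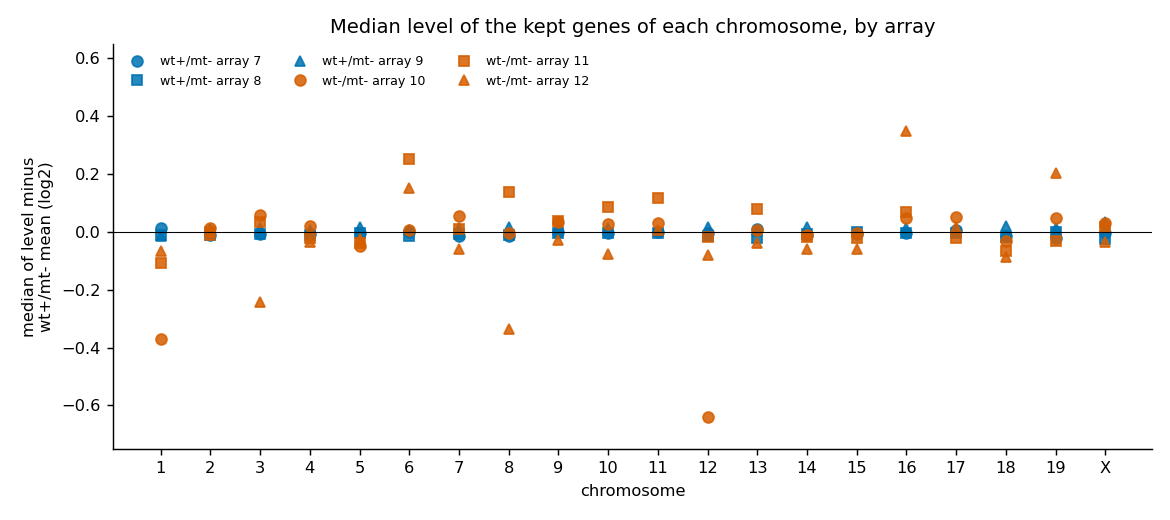
The median over the kept genes of each chromosome of the level minus the wt+/mt- mean (log2), with 1 symbol per array. The wt+/mt- arrays (blue), which form the reference, lie between -0.03 and 0.03, while wt-/mt- arrays depart most on chromosomes 1, 3, 6, 8, 12, 16 and 19.

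Over all 12 arrays, the kept genes whose levels were most like those of Foxo1 were Mef2a, a MADS box factor (Pearson r = 0.959), Chrnb1 (0.956), Siae, a sialic acid esterase (0.956), Atp6ap1, a subunit of the vacuolar proton pump (0.95), and Bcl2l11 (0.944). The 12 arrays share 4 genotypes, and Foxo1 is set apart by the 3 wt-/mt- arrays, so these values mostly describe that genotype. None of the 5 was called in the comparison. Mef2a stood at 11.22, 10.98 and 10.90 against 10.30, 9.98 and 10.38 (change -0.81, limma adjusted p = 0.0816).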

How the data were processed

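The authors deposited log2 values per probe set. Per the submitters' processing notes these come from RMA, whose version is not given in the sources used here. RMA removes background and brings the arrays to a common distribution, so a shift shared by most genes is largely removed. The log base follows from RMA's usual output and the range of 3.09 to 15.57. Of 45101 probe sets, 34958 were paired with 1 gene by GEO's platform annotation, 932 with several and 9211 with none in the table. Each gene took its probe set with the highest mean over 12 arrays and was kept when above the array's median on at least 3 of the 6 arrays.

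The test was limma (version 3.58.1, R 4.3.3; lmFit, then eBayes) on the 6 arrays alone, since a spread shared over 12 arrays is too small for wt-/mt-. Errors are limma's SE, and the fit was tested on simulated data. The number of arrays limits the precision. Array numbers are shared by no genotypes and pair nothing. The comparison, the 36 gene lists (597 of 645 entries matched) and the tests were chosen with earlier results of these data known. Named genes were Foxo1, the 15 largest rises and falls among called genes without overlap, up to 5 called members of a list, the 10 largest called interactions, and the 5 genes most like Foxo1. Alternatives changed the filter, probe set, scaling, spread, covariates and arrays. Array medians lay between 6.08 and 6.25, and 0 pairs of arrays were identical.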

Additional observations from a re-analysis of the deposited data

Results flagged for a closer look

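The 2 losses of the wild-type allele, without and with the mutant allele, differed for 366 genes by the interaction over 12 arrays (limma adjusted p under 0.05). That fit shared 1 spread over genotypes of unlike spread. With 1 weight per genotype it called 359 genes, with 268 of the 366 among them. The 10 with the largest difference are given with the change without and with the mutant allele. Zfyve28 differed by -4.89, with changes of -4.83 and 0.06. Clec2i differed by 4.79, with changes of 3.78 and -1.01. Ehf differed by -4.73 and Lct by -4.18, with changes of 0.08 and 0.30 where the mutant allele was present. Dnaic2, an axonemal dynein chain, differed by -4.55, although its change of -4.41 was not called (adjusted p = 0.087). It ranged from 4.04 to 7.85 over the wt-/mt- arrays.

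Sash3, an adaptor of lymphocyte signalling, differed by 4.45. It fell by 2.51 on the log2 scale with the mutant allele (adjusted p = 0.0161) and had a change of 1.94 without it (adjusted p = 0.24), with array 7 at 9.50 and arrays 8 and 9 at 7.16 and 6.74. Pla2g7, a secreted phospholipase, differed by 3.89, with changes of -1.68 (adjusted p = 0.00107) and 2.21 (adjusted p = 0.154). Anxa10, an annexin, differed by 4.05 and stood at 14.17, 12.12 and 11.18 on the wt-/mt- arrays, a change of 3.69 that was not called (adjusted p = 0.0741). Cdyl2 differed by -3.95 and Bach2 by -3.93.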

How the results depend on the processing

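The count of 115 became 1669 with all 12 arrays and a shared spread, 396 with 1 weight per genotype, 75 with the median over a gene's probe sets, 0 with the actin ratio as a covariate and 0 without arrays 7 and 8 together. Leaving out 1 array gave between 0 and 255. The cause of these differences was not tested. Other filters and scalings gave between 100 and 161, and the 12-array fit without arrays 7 and 8, added after the data were seen, gave 114.

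Foxo1 changed by -1.88 without a filter, -1.82 with the median of its probe sets, -1.78 with chromosomes centred, -1.61 with the actin covariate and -1.60 without arrays 7 and 8 on 6 or 12 arrays, and was called in none of these. Leaving out 1 array gave between -2.06 and -1.59.

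The interaction called 164 genes with the actin covariate and 52 without arrays 7 and 8, an alternative added after the data were seen. Leaving out 1 array gave between 120 and 1002. Loss with the mutant allele present gave 50 calls, 18 with 1 weight per genotype, 2 with the actin covariate and between 2 and 30 without 1 array. With arrays centred, 55 were called, 18 higher and 37 lower.

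Over 35 named genes and 625 settings 0 changes of sign occurred, which leaving out arrays could not cause, and 219 lost the call, without array 7 or 8, with both left out or with the actin covariate for all 35. With the median over a gene's probe sets, 9 of the named genes lost the call. Of 540 settings of 30 list medians, 48 moved by more than the spread between arrays. No paired analysis was possible because no array number is shared by genotypes.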

Other observations

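Other falls outside the lists, picked from the 93 after their values were seen, included 5 genes with a known part in autophagy. They do not describe a group, since no list of them was fixed and the 2 lists that hold autophagy genes had 0 calls. They were Atg4a, a protease that processes ATG8 proteins (change -1.73, limma adjusted p = 0.025), Rb1cc1, the FIP200 subunit of the ULK complex (-1.33, adjusted p = 0.0467), Trp53inp2 (-1.08, adjusted p = 0.0386), Nrbf2, a subunit of the PI3K complex of autophagy (-0.79, adjusted p = 0.0401), and Retreg1, a receptor for autophagy of the endoplasmic reticulum (-1.88, adjusted p = 0.0267). Atg4a stood at 11.72, 11.78 and 11.59 on the wt+/mt- arrays and at 9.77, 9.79 and 10.36 on the wt-/mt- arrays. In those lists Ulk1 had a change of -0.41 and Map1lc3b one of 0.05.

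Havcr1 and Timd2 were both among the 15 largest called rises. They are neighbours on chromosome 11 in the RefSeq order of GRCm38.p6, with 1 predicted gene between them. Whether their place bears on their rises was not tested.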
